A study of Homo sapiens and Mus musculus with 29 samples.

Results

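QPCT and QPCTL encode the glutaminyl cyclases, and their RNA was followed in orthotopic xenografts of HPAF-II, a human pancreatic adenocarcinoma cell line, and in cell lines from the KPC mouse model of pancreatic cancer. They were found by symbol as 2 of the 58719 genes in the table of 21 HPAF-II samples, and their mouse orthologs Qpct and Qpctl as 2 of the 54446 genes in the table of 8 KPC libraries. QPCT was selected on its measured RNA level, which was high in HNF4G-KO tumors and low in FOXA1-overexpressing tumors. Its contrasts between groups of primary tumors are therefore given as a description, with no test. QPCTL was taken along as the other enzyme of the family, not for its own level.

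Every xenograft came from HPAF-II cells placed in the tail of the pancreas of NSG mice about 8 weeks old, and was collected at a humane endpoint. All cells had been through CRISPR Cas-9 treatment, FOXA1 was added by lentiviral overexpression, and EV is the empty vector. The controls were Cas-9-EV (3 tumors), and the other primary tumors were HNF4G knockout-EV (4 tumors, here HNF4G-KO), Cas-9 + FOXA1 (3 tumors, FOXA1-OE) and HNF4G knockout + FOXA1 (5 tumors from 4 mice). Metastases were sequenced from HNF4G-KO mice (2, both peritoneal) and from HNF4G knockout + FOXA1 mice (4 from 3 mice, 1 in the spleen and the others peritoneal or in peritoneal fat). The knockout cells were a pool of 3 clones with heterozygotic frameshift mutations, so knockout and clonal origin cannot be told apart. NSG mice lack lymphocytes but keep myeloid and stromal cells. The KPC libraries came from a line of a primary tumor and a line of its liver metastasis, with 4 libraries each.

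Glutaminyl cyclases close an N-terminal glutamine or glutamate into a pyroglutamate ring, which protects peptide hormones and chemokines from aminopeptidases. QPCT is secreted with the peptides it matures. QPCTL stays in the Golgi, where it modifies chemokines such as CCL2 and CX3CL1 and the N terminus of CD47, the surface protein that inhibits phagocytosis through SIRPα on macrophages.

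HNF4G and FOXA1 were checked against the labels first. HNF4G was 2.48 to 3.47 RPKM (the read count scaled for gene length and library depth) in control tumors and 5.72 to 8.42 in tumors labeled HNF4G-KO, higher in 4 of 4. It was 0.495 to 3.04 in FOXA1-OE tumors, lowest in tumor 3, and 1.69 to 7.09 in HNF4G-KO + FOXA1-OE tumors, with tumor 5 below every control. Reads over the whole gene do not test for a frameshift. FOXA1 was 0.519 to 0.932 RPKM in control tumors. It was 1.26 to 1.87 in tumors labeled HNF4G-KO, above every control. Of the genes that averaged 1 RPKM or more, 46.4% did not overlap between HNF4G-KO and control tumors. FOXA1 was 6.32 and 8.18 RPKM in FOXA1-OE tumors 1 and 2, and 0.763, within the control range, in FOXA1-OE tumor 3. In HNF4G-KO + FOXA1-OE it was 4.65 to 23.1 in the 5 tumors, but 0.535, 17.9, 1.30 and 1.55 in the 4 metastases. The 5 epithelial markers were at or above 1 RPKM in all 21 samples. Stromal, myeloid and normal pancreas cells of a xenograft belong to the mouse host, whereas these values are for human genes. Sums of their markers, and the stromal term used below, therefore do not measure the content of host cells. The summed RPKM of 8 stromal markers ranged from 50.3 to 184 in controls, 46.2 to 66.8 in HNF4G-KO and 33.5 to 152 in FOXA1-OE tumors, with COL6A3 and DCN below 1 in every sample. The 6 myeloid markers summed to at most 4.10 in these groups. The 7 markers of normal pancreas summed to 4.32 to 338 in control tumors, against 1.89 to 8.26 in HNF4G-KO and 3.31 to 17.9 in FOXA1-OE tumors. The part of these differences in the results below was not tested, beyond the values with a stromal term. In bulk tissue, fewer cells of a type and less RNA per cell cannot be told apart.

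QPCT (ENSG00000115828) lies on the plus strand of chromosome 2, from 37342827 to 37373322 on GRCh38, with 2676 bases of exon. A minus-strand lncRNA, ENSG00000285925, overlaps its start and reached at most 1.54 RPKM. QPCTL (ENSG00000011478) lies on the plus strand of chromosome 19, from 45692403 to 45703989, with 2825 bases of exon. Its start overlaps SNRPD2, a minus-strand gene of the spliceosome core that averaged 85.0 RPKM. How the counting treated strand is not given in the sources used here, so reads of each pair in the overlap may not be separable.

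The promoter of QPCT is shown because the factors manipulated in these tumors bind DNA. The RefSeq window (GRCh38.p14, plus strand) covers 300 bases around the start of the gene in RefSeq, most of them before it. That start lies inside the longer GENCODE gene given above, whose earliest transcript begins upstream, so the window falls partly in the first intron of that transcript. Its annotated exons are left out, which leaves chr2:37344380-37344593. Capitals mark CpG dinucleotides.
QPCT promoter: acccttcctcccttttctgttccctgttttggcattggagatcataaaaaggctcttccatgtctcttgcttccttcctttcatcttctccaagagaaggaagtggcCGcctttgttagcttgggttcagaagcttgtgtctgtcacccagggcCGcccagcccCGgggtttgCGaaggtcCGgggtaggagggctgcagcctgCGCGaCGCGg
The stretch holds 9 CpG, most of them in its last part. The whole 300-base window held 20 CpG at 61% GC, and that of QPCTL 15 CpG at 58% GC, beside medians of 14 CpG and 58.7% GC over 35116 promoters. Forkhead-type letters (TGTTTAC or else TATTTAC, and likewise TGTTTGC or else TATTTGC, on both strands) were found in neither window and in 12.1% of all promoters. HNF4-type letters (CAAAGTCCA, CAAAGTTCA, CAAGGTCCA or CAAGGTTCA, both strands) were also in neither window and in 1.05% of all promoters. This says only that these letters are not in these windows. The QPCTL window lies within annotated exons and is not shown.

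QPCT was the more variable of the enzymes by far. In the 3 control tumors it was 9.24, 6.28 and 8.21 RPKM, or 7.91 ± 1.50 (SD, n = 3). In the 4 HNF4G-KO tumors it was 65.7, 84.7, 69.5 and 60.4 RPKM, or 70.1 ± 10.4 (SD, n = 4). In the 3 FOXA1-OE tumors it was 1.28, 1.80 and 2.14 RPKM, or 1.74 ± 0.431 (SD, n = 3). The 3 groups did not overlap, with HNF4G-KO highest and FOXA1-OE lowest. FOXA1-OE tumor 3, in which FOXA1 RNA was within the control range, had the highest QPCT of its group and was still below every control. About 151 to 247 reads stood behind the FOXA1-OE values and about 591 to 1406 behind those of controls.

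As a ratio of mean RPKM, QPCT was 8.86-fold higher in HNF4G-KO than in control tumors. On the log2(RPKM + 1) scale, on which all differences below are given, this was 3.00 ± 0.30 (SE), the 3rd highest of the 14269 genes that averaged 1 RPKM or more. The groups did not overlap for 46.4% of these genes, and limma called 12.2% of them at an adjusted p under 0.05. In FOXA1-OE tumors mean QPCT was 0.220 of control, a difference of -1.70 ± 0.32 and the 6th lowest of all genes. The groups did not overlap for 9.25% of genes. limma called 0% of genes in this contrast at an adjusted p under 0.05, and 652 genes had an unadjusted p under 0.05. With a stromal term in the fit the differences were 2.88 for HNF4G-KO and -1.81 for FOXA1-OE, and without FOXA1-OE tumor 3 the latter was -1.80.

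HNF4G-KO tumors with added FOXA1 kept a high QPCT. Their values were 77.9, 59.0, 49.6, 32.0 and 25.5 RPKM, tumors 2 and 3 being from the same mouse, or 47.4 ± 23.7 (SD, n = 4 mice). All 5 were above every control tumor, and their range overlapped with that of HNF4G-KO tumors at tumor 1. The difference from HNF4G-KO tumors was -0.68 ± 0.28, and it ran from -0.95 without tumor 1 to -0.43 without tumor 5. In the same contrast 15.2% of genes did not overlap and 0.0561% were called by limma. Against control tumors the difference was 2.32 ± 0.30, the 17th highest of all genes, where 18.9% of genes did not overlap and 4.70% were called. Against FOXA1-OE tumors it was 4.02 ± 0.30, the 3rd highest, where 14.6% did not overlap and 7.86% were called. The difference associated with FOXA1 was thus -1.70 without and -0.68 with HNF4G-KO. The gap between them was 1.02 ± 0.43 and is given with no test, since QPCT was chosen for these contrasts. limma called 0.0350% of genes for such a gap.

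QPCTL was flatter. It was 3.66, 3.74 and 3.73 RPKM in control tumors, or 3.71 ± 0.0441 (SD, n = 3). In HNF4G-KO tumors it was 2.53, 2.27, 2.25 and 2.77 RPKM, or 2.46 ± 0.245 (SD, n = 4). All 4 were below every control, a difference of -0.45 ± 0.20 with a 95% confidence interval of -0.87 to -0.03, in a contrast where 46.4% of genes did not overlap. It did not pass the test over all genes (limma, adjusted p = 0.142), and the exact two-sided permutation test gave p = 0.0571, the smallest that 3 against 4 allows. The call depended on the samples in the fit. With controls and HNF4G-KO tumors alone limma gave an adjusted p = 0.00866 for the same difference, but then called 39.7% of all genes. The adjoining SNRPD2 differed by -0.74 ± 0.28 (limma, adjusted p = 0.0989), and the part of its reads in the QPCTL value was not tested.

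In FOXA1-OE tumors QPCTL was 4.73, 3.28 and 5.07 RPKM, or 4.36 ± 0.952 (SD, n = 3), 2 of them above and 1 below the controls. The difference of 0.17 ± 0.21 (interval -0.28 to 0.62) did not pass (limma, adjusted p = 0.852). In HNF4G-KO + FOXA1-OE tumors it was 3.53, 1.77, 1.88, 3.72 and 4.39 RPKM, with the lowest values in both tumors of the same mouse. The groups overlapped in each contrast, with 0.30 ± 0.18 against HNF4G-KO tumors (interval -0.09 to 0.69, limma adjusted p = 0.329), -0.15 ± 0.20 against control (-0.57 to 0.27, adjusted p = 0.742) and -0.32 ± 0.20 against FOXA1-OE tumors (-0.74 to 0.10, adjusted p = 0.349). The FOXA1-associated difference in QPCTL with and without HNF4G-KO differed by 0.13 ± 0.28 (interval -0.47 to 0.73, limma adjusted p = 0.941). The intervals against control, and that of the last difference, leave room for changes of moderate size in either direction. That against HNF4G-KO tumors reached down only to -0.09, and that against FOXA1-OE tumors up only to 0.10.

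**Figure D1:**
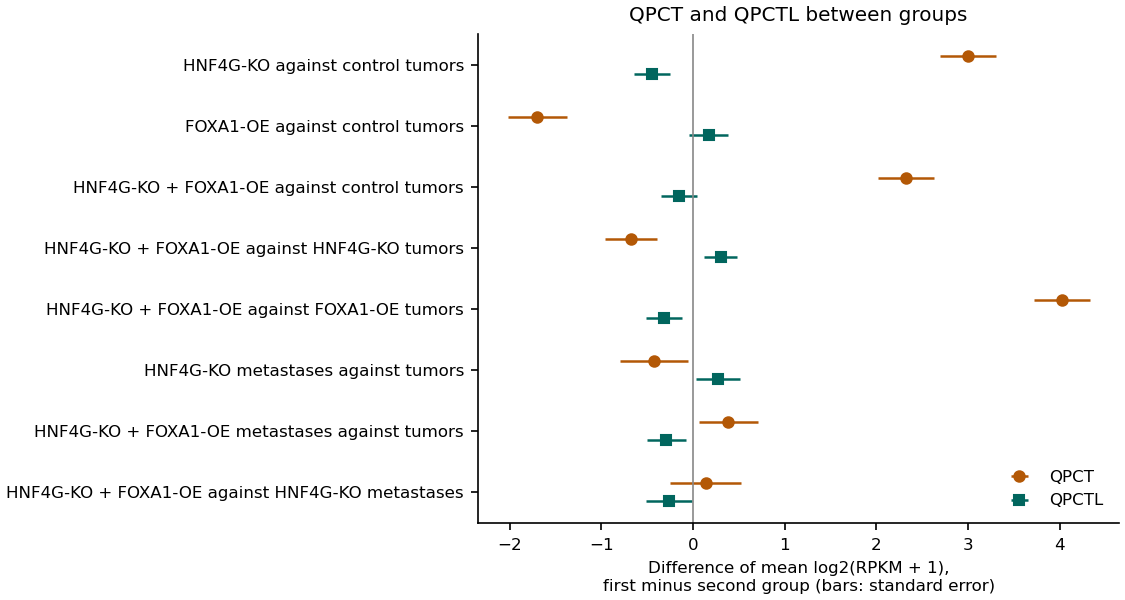
Difference in log2(RPKM + 1) (x axis) of QPCT (circles) and QPCTL (squares) in 8 comparisons of HPAF-II groups, with the standard error as bars. QPCT ranges from -1.70 in FOXA1-OE against control to 4.02 in HNF4G-KO + FOXA1-OE against FOXA1-OE tumors, and QPCTL stays between -0.45 and 0.30.

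Because RPKM is per length, both enzymes can be set on the same scale. QPCT made up 62.7% to 71.6% of the RPKM of both in control tumors. It made up 95.6% to 97.4% in HNF4G-KO tumors and 85.3% to 97.1% in HNF4G-KO + FOXA1-OE tumors. In FOXA1-OE tumors it was 21.3% to 35.5%. The Golgi enzyme QPCTL was thus the more abundant RNA in these 3 tumors and in no other HPAF-II sample. QPCT exceeded QPCTL by 1.68 to 2.52 times in controls and by 21.8 to 37.3 times in HNF4G-KO tumors, whereas the ratio was 0.271 to 0.550 in FOXA1-OE tumors. These ratios carry the choice of QPCT and are not tested.

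The selection of QPCT did not use the metastases, but it did use the primary tumors. The QPCT contrasts of metastases with tumors are therefore given with no test. QPCT was 65.7 and 40.2 RPKM in HNF4G-KO metastases, the latter below all 4 HNF4G-KO tumors. The difference was -0.43 ± 0.37, and it was -0.77 without metastasis 1 and -0.08 without metastasis 2. In HNF4G-KO + FOXA1-OE metastases QPCT was 43.2 in the spleen and 61.6, 50.6 and 69.7 RPKM at the peritoneal sites, all within the range of the tumors. The difference from those tumors was 0.39 ± 0.33. Between the genotypes, metastases differed by 0.14 ± 0.39 (interval -0.70 to 0.98, limma adjusted p = 0.974). All 6 metastases, at 40.2 to 69.7 RPKM, were above the 6.28 to 9.24 of control tumors. Metastases were not fitted against control tumors, so the share of all genes that separate in this way is not known.

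QPCTL was 3.26 and 3.07 RPKM in HNF4G-KO metastases, both above the 4 tumors of that genotype, in a contrast where 33.0% of genes did not overlap and 0.0426% were called (0.546% with the mouse as a block). The difference of 0.27 ± 0.24 (interval -0.24 to 0.79) did not pass (limma, adjusted p = 0.635). In HNF4G-KO + FOXA1-OE metastases it was 4.42 in the spleen and 2.59, 1.84 and 2.34 RPKM elsewhere, overlapping with the tumors (-0.29 ± 0.21, interval -0.75 to 0.16, limma adjusted p = 0.609). There 6.53% of genes did not overlap and 0.00709% were called (0.0780% with that block). Between metastases of the genotypes the difference was -0.26 ± 0.25 (interval -0.81 to 0.28, limma adjusted p = 0.876), where 19.6% of genes did not overlap. limma called 0% of genes in that contrast, and 963 had an unadjusted p under 0.05.

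Metastases could be set beside a tumor of the same mouse in 4 mice. QPCT was lower in the metastasis in 3 of them, by -0.36 and -0.57 in the HNF4G-KO mice and -0.58 in the first HNF4G-KO + FOXA1-OE mouse. It was higher by 1.10 in the other. QPCTL went the opposite way in 3 of these mice, with differences of 0.38, 0.11, -0.04 and -0.50 in the same order. Stromal markers summed to 71.3 to 379 RPKM in HNF4G-KO metastases, above the 46.2 to 66.8 of the tumors, and to 68.9 to 210 in HNF4G-KO + FOXA1-OE metastases, overlapping with the 42.6 to 108 of the tumors. With a stromal term the QPCT differences were -0.10 for HNF4G-KO and 0.65 for HNF4G-KO + FOXA1-OE.

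With samples that shared a mouse averaged, the order of mean QPCT over all groups was HNF4G-KO tumors (70.1), metastases of HNF4G-KO + FOXA1-OE (57.3) and of HNF4G-KO (53.0), HNF4G-KO + FOXA1-OE tumors (47.4), control tumors (7.91) and FOXA1-OE tumors (1.74 RPKM). Neighbors among the first 4 groups overlapped, and the last 2 groups stood apart from each other and from the rest. The share of all genes with such a separation over all groups was not computed. For QPCTL the order was FOXA1-OE tumors (4.36), control tumors (3.71), HNF4G-KO + FOXA1-OE tumors (3.37), HNF4G-KO metastases (3.16), HNF4G-KO + FOXA1-OE metastases (2.53) and HNF4G-KO tumors (2.46 RPKM). All neighbors in that order overlapped.

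Substrates of the enzymes and enzymes that act on pyroglutamate were read from 3 lists of 36 genes in all, of which 21 reached the mean of 1 RPKM (11 of 21 substrates, 5 of 9 N-terminal peptidases and 5 of 6 genes of free pyroglutamate). In HNF4G-KO against control tumors limma called 2 of the 21, or 9.52%, beside 12.2% of all genes. CX3CL1, the membrane-bound chemokine fractalkine, fell. It ranged from 12.6 to 13.7 RPKM in control tumors (13.0 ± 0.589, SD, n = 3) and from 1.49 to 2.86 in HNF4G-KO tumors (2.05 ± 0.577, n = 4), which did not overlap. The difference was -2.22 ± 0.30 (limma, adjusted p = 0.00108). NTS, the precursor of neurotensin, a gut peptide whose N terminus is pyroglutamate, rose by 1.28 ± 0.25 (limma, adjusted p = 0.00996), from 0.496 to 0.893 RPKM in controls to 2.03 to 3.83 in HNF4G-KO tumors. In control and FOXA1-OE tumors NTS averaged 0.658 and 0.774 RPKM. It passed the filter of 1 RPKM through the HNF4G-KO genotypes, where it was higher, so its call is not independent of the filter. Without control tumor 2 that call was lost (limma, adjusted p = 0.0552), and 284 of 14222 genes were called in place of 1736 of 14269.

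CX3CL1 was 11.6 to 17.7 RPKM in FOXA1-OE tumors, overlapping with controls, and 1.05 to 5.46 in HNF4G-KO + FOXA1-OE tumors. It was lower in the latter than in control tumors (-2.12 ± 0.30, limma adjusted p = 0.00293) and than in FOXA1-OE tumors (-2.28 ± 0.30, adjusted p = 0.000846). The first of these calls was lost in a fit of the compared groups alone (limma, adjusted p = 0.0528), which called 0.174% of all genes. In metastases CX3CL1 was 0.831 and 2.46 RPKM for HNF4G-KO and 0.855 to 3.04 for HNF4G-KO + FOXA1-OE. QPCT was high in each of the groups in which CX3CL1 was low, but it was chosen for its high level in HNF4G-KO tumors. A link between the genes was not tested. In FOXA1-OE tumors, where QPCT was lowest, CX3CL1 differed from control by 0.15 ± 0.32 (limma, adjusted p = 0.905).

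CD47, the substrate of QPCTL best known in tumors, passed no test. It was 12.8 to 21.3 RPKM in control tumors, 14.8 to 20.3 in HNF4G-KO, 11.0 to 18.7 in FOXA1-OE and 12.3 to 29.1 in HNF4G-KO + FOXA1-OE tumors, so all groups overlapped. Its difference was 0.17 ± 0.27 in HNF4G-KO (limma, adjusted p = 0.691) and -0.16 ± 0.29 in FOXA1-OE tumors (adjusted p = 0.891), both against control. The chemokine substrates CCL2, CCL7, CCL8 and CCL13 and the hormone precursor TRH did not reach the mean of 1 RPKM.

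PGPEP1, the cytosolic peptidase that removes pyroglutamate, was 11.1 to 12.5 RPKM in control, 9.30 to 13.0 in HNF4G-KO and 13.4 to 22.3 in FOXA1-OE tumors. The FOXA1-OE tumors were all above the controls, in a contrast where 9.25% of genes did not overlap, but the difference of 0.49 ± 0.27 did not pass (limma, adjusted p = 0.840). In HNF4G-KO it was -0.08 ± 0.26 (adjusted p = 0.867). CHAC1, which releases free pyroglutamate from glutathione, was higher in HNF4G-KO + FOXA1-OE (3.40 ± 1.35 RPKM, SD, n = 4 mice) than in FOXA1-OE tumors (1.47 ± 0.0262, n = 3), by 0.78 ± 0.20 (limma, adjusted p = 0.0281). This call was lost in 8 alternatives, with an adjusted p of 0.0113 to 0.224 over all of them.

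limma called 1 of the 21 listed genes, CX3CL1, in HNF4G-KO + FOXA1-OE against control (4.76%, beside 4.70% of all genes) and 2, CHAC1 and CX3CL1, against FOXA1-OE tumors (9.52%, beside 7.86%). It called 0 in FOXA1-OE against control, with 0 at an unadjusted p under 0.05, beside 652 of all 14269 genes. In HNF4G-KO + FOXA1-OE against HNF4G-KO tumors it called 0, with 1 at an unadjusted p under 0.05, beside 2894 of all 14269 genes. In the contrasts of metastases with tumors it called 0, with 4 unadjusted in HNF4G-KO and 3 in HNF4G-KO + FOXA1-OE. Of all 14099 genes there, 1896 and 1356 had an unadjusted p under 0.05, in the same order. The median difference in HNF4G-KO against control tumors was -0.26 for substrates, 0.22 for peptidases and -0.23 for genes of free pyroglutamate, beside 0.01 for all genes tested. In FOXA1-OE against control tumors these were 0.03, -0.25 and -0.04, beside -0.03.

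The genes most like QPCT were ranked by Pearson's r of log2(RPKM + 1) over the 14 mice with primary tumors. These mice share their 4 groups, so the r values restate the group pattern that QPCT was chosen for and are given as a description. CEACAM6, a GPI-anchored adhesion molecule, had the highest r (0.96), with group means of 231 RPKM in control, 898 in HNF4G-KO, 176 in FOXA1-OE and 718 in HNF4G-KO + FOXA1-OE tumors. CDH17, an intestinal cadherin, followed (0.95), at 31.1, 121, 16.4 and 134 RPKM in the same order. ALOX5, the 5-lipoxygenase of leukotriene synthesis, ACER3, an alkaline ceramidase, and RBP4, a carrier of retinol, came next, each at 0.95. All 5 had the order of QPCT between controls, HNF4G-KO and FOXA1-OE tumors. With the group means taken out, r was between 0.31 for ACER3 and 0.68 for CEACAM6. Over the 6 metastases, which the ranking did not use, r was 0.58 for CEACAM6, 0.74 for CDH17, 0.41 for ALOX5, 0.15 for ACER3 and -0.12 for RBP4.

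The most opposite genes were CMTM7 (r = -0.97), MGAT5B, a glycosyltransferase (-0.96), and SOD3, the extracellular superoxide dismutase (-0.96). SOD3 averaged 12.1 RPKM in control, 0.727 in HNF4G-KO, 30.8 in FOXA1-OE and 1.74 in HNF4G-KO + FOXA1-OE tumors. Over the metastases r was -0.63 for CMTM7, -0.61 for SOD3 and 0.13 for MGAT5B. An r above 0.9 was reached by 90 genes with QPCT and by 189 with QPCTL. For QPCTL the highest were CD320, the receptor of transcobalamin (0.97), MFSD10 (0.97), PPP2R1A, the scaffold subunit of protein phosphatase 2A (0.96), ZNF579 (0.96) and SCAND1 (0.96). The lowest were KPNB1, the nuclear import receptor importin β (-0.96), USP34-DT (-0.95) and ZSCAN12P1 (-0.95). With the group means taken out, r with QPCTL stayed at 0.93 to 0.95 for the highest and -0.94 to -0.91 for the lowest. These values thus reflect differences between mice of the same group as well. Over the metastases r ran from 0.61 for MFSD10 to 0.97 for SCAND1, and from -0.87 for KPNB1 to -0.11 for ZSCAN12P1. None of these 8 was among the 8 named for QPCT.

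Neighboring genes differed less than QPCT in HNF4G-KO and in FOXA1-OE against control tumors. QPCT was chosen for its level in these groups and ranked 3rd highest and 6th lowest of all genes tested. The smaller size of its neighbors' differences follows from that choice and says nothing about the locus. The starts of the tested neighbors lay from -141 kb (CEBPZ) to 951 kb (ATL2) relative to that of QPCT. CEBPZ, RMDN2 and PRKD3 had the signs of QPCT in both contrasts. NDUFAF7 had its sign in the first only, ATL2 in the second only and CDC42EP3 in neither. Of the 3 tested genes on either side of QPCT, differences in HNF4G-KO against control tumors ran from -0.41 for CDC42EP3 to 0.53 for CEBPZ, beside 3.00 for QPCT. There limma called none of them, beside 12.2% of all genes. In FOXA1-OE against control tumors they ran from -0.51 for CEBPZ to 0.16 for CDC42EP3, beside -1.70, where limma called 0% of all genes. Of these 6, only CDC42EP3, a Cdc42 effector, was called in a contrast of primary tumors, in the opposite direction to QPCT. It was lower in HNF4G-KO + FOXA1-OE than in control tumors (-0.88, limma adjusted p = 0.00948), where 4.70% of all genes were called. It was also lower than in FOXA1-OE tumors (-1.03, limma adjusted p = 0.00247), where 7.86% were called. Around QPCTL, the 6 neighbors differed by -0.74 (SNRPD2) to 0.15 (EML2) in HNF4G-KO against control tumors, and none was called, beside 12.2% of all genes.

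In the KPC lines Qpctl was higher than Qpct in all 8 libraries. The methods call the RNA-seq replicates biological. In what way the libraries of a line were separate is not given in the sources used here, so the p-values measure only the spread between these libraries. The replicate numbers 1 and 2 also stood apart from 3 and 4. Over the tested genes, libraries of the same line correlated by 0.242 to 0.621 within these pairs of numbers and by -0.713 to -0.496 across them, after removal of each line's mean. Across the lines, libraries correlated by -0.0246 to 0.490 with the other pair of numbers and by -0.595 to 0.124 with the same pair. Removal of a line's mean lowers the correlations within that line and not those across lines. The values within and across lines therefore cannot tell which libraries were closer. Whether line labels or numbers are crossed was not tested, and each KPC difference below takes the labels as given. Differences are given for all libraries and for each pair of numbers.

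Qpctl (ENSMUSG00000030407.2, minus strand of chromosome 7, 19139702 to 19149291 on GRCm38) was 3.83, 4.06, 3.74 and 3.41 RPKM in the tumor line, or 3.76 ± 0.271 (SD, n = 4). In the liver metastasis line it was 3.04, 3.86, 3.48 and 4.30 RPKM, or 3.67 ± 0.538 (SD, n = 4). The lines overlapped and differed by -0.03 ± 0.12 (interval -0.30 to 0.23, limma adjusted p = 1, exact permutation p = 0.771). The difference was -0.16 in replicates 1 and 2 and 0.09 in replicates 3 and 4. Fbxo46 overlaps it on the other strand and averaged 4.06 RPKM.

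Qpct (ENSMUSG00000024084.8, plus strand of chromosome 17, 79051906 to 79090378) was 0.121, 0.0288, 0.479 and 0.204 RPKM in the tumor line and 0.251, 0.266, 0.0523 and 0.0971 in the metastasis line, from about 3 to 54 reads. Below the mean of 1 RPKM, it did not enter limma, and an exact permutation test of its difference of -0.04 gave p = 0.829. It was higher in the metastasis line in replicates 1 and 2, by 0.23 on average, and lower in replicates 3 and 4, by -0.31. In the contrast 0.683% of genes did not overlap and limma called 0%, with 109 at an unadjusted p under 0.05. limma likewise called 0 of the 17 listed genes that reached 1 RPKM there, with 0 at an unadjusted p under 0.05. Their differences ran from -0.39 for Col1a1 to 0.24 for Ccl2, and Cd47 differed by -0.04 ± 0.23 (adjusted p = 1). With replicates 1 and 2 alone, limma called 10 of the 17, but also 25.5% of all genes.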

How the data were processed

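Tumor, metastasis and cell line RNA was sequenced by the authors, and the deposited values are RPKM per gene. Per the submitters' processing notes and the study's methods, reads were aligned with STAR 2.6.1a and counted with featureCounts 2.0.4, and DESeq2 was named. The sources name both GRCh37 and hg38 for the human reads and mm10 (GRCm38) for the mouse reads. Coordinates came from GENCODE v44 (GRCh38) and M21 (GRCm38), which matched 58250 of 58719 and 54409 of 54446 identifiers. In the KPC table, 12 columns matched no sample and were not used.

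The RPKM steps of low genes gave 33.1 to 69.6 M reads per HPAF-II sample (median 54.5) and 30.1 to 44.4 M per KPC library (median 36.2). At least 99.8% of low values were whole reads within 0.05. Read numbers are approximate.

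Differences were fitted on log2(RPKM + 1) with limma 3.58.1 (R 4.3.3, empirical Bayes with trend) over genes that averaged 1 RPKM or more, with Benjamini-Hochberg adjustment over all of them (threshold 0.05). This scale understates the change of low genes. Tumors, or metastases, that shared a mouse entered as their mean on that scale. Primary tumors of the 4 groups shared a fit, the tumors and metastases of both HNF4G-KO genotypes another, and the KPC libraries their own. The step was tested on simulated data. Single values were compared with exact two-sided permutation tests, whose smallest p was 0.0571 for 3 against 4 and 0.133 for 2 against 4. Tables were made with Python 3.11.15 and scipy 1.17.1.

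The enzymes and gene lists were chosen with earlier results of these data known. Named genes were the 4 enzymes, CD47 and PGPEP1, each list member called in a comparison, the 5 genes of highest and 3 of lowest correlation with each human enzyme, and the 3 tested genes on either side. Col1a1 and Ccl2 in the KPC lines were named after their values were seen, as the ends of a range.

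Tumors and metastases of the same mouse, as the labels give them, were treated as paired in an alternative, and their deviations from group means correlated by 0.25, 0.30, 0.27 and -0.03. Primary tumors of different groups share only a number. Alternatives varied the pseudocount (0.1), the filter, the samples in the fit, median centering, a stromal term, blocks and each replicate.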

Additional observations from a re-analysis of the deposited data

Results flagged for a closer look

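Qpct differed in opposite directions between the KPC lines. It was higher in the liver metastasis line than in the tumor line in both pairs of libraries numbered 1 and 2, by 0.229 on the log2(RPKM + 1) scale on average, and lower in both pairs numbered 3 and 4, by -0.313. The difference between these pairs was not tested. All 8 values were below 1 RPKM. The highest and lowest sample of each group of 4 or more were also compared with the rest of the group for each enzyme, and 0 of these 10 comparisons found a sample far from the others.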

How the results depend on the processing

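QPCT in FOXA1-OE against control tumors was -2.13 with a pseudocount of 0.1. QPCTL in HNF4G-KO against control tumors passed with only those groups in the fit (adjusted p = 0.00866, difference -0.45), and without each replicate in turn its adjusted p ran from 0.054 to 0.295.

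Some differences changed sign. Without each replicate in turn, QPCT between the metastases of both genotypes ran from -0.21 to 0.48, QPCTL in HNF4G-KO + FOXA1-OE against control tumors from -0.26 to 0.046, the gap in its FOXA1-associated difference from -0.024 to 0.33, Qpctl between the KPC lines from -0.095 to 0.036 and Qpct there from -0.11 to 0.060. With KPC replicates 3 and 4 only, Qpctl differed by 0.093 and Qpct by -0.31, and with replicates 1 and 2 only Qpct differed by 0.23. None of these passed a test in any setting.

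Listed genes called in HNF4G-KO against control tumors numbered 4 with only those groups in the fit, which called 39.7% of all genes. They numbered 1 to 3 without each replicate, with 1 where control tumor 2 was left out and 2.00% of all genes were called. In HNF4G-KO + FOXA1-OE against control they numbered 0 with only those groups, where 0.174% of all genes were called. Against FOXA1-OE tumors they numbered 1 with no filter (2.49% of all genes called), with only those groups (0.597%) and with every tumor separate (9.79%). Without each replicate they numbered 1 to 3 there, with 1 in fits that called 4.01% to 9.27% of all genes. For HNF4G-KO metastases, a fit without either metastasis leaves 1 sample, so its count is not given. In the KPC lines they numbered 10 with replicates 1 and 2 only, where 25.5% of all genes were called.

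With the tumor number as a replicate block, QPCT differed by 3.15 in HNF4G-KO and 2.79 in HNF4G-KO + FOXA1-OE against control, and by -0.37 between HNF4G-KO + FOXA1-OE and HNF4G-KO tumors. Genes called in HNF4G-KO against control numbered 2235 with that block and 1736 without it, and in HNF4G-KO + FOXA1-OE tumors 344 and 670 against control and 1 and 8 against HNF4G-KO. With the mouse as a replicate block for the paired metastases, QPCT differed by -0.44 in HNF4G-KO and by 0.35 in HNF4G-KO + FOXA1-OE, and all genes called numbered 77 in HNF4G-KO and 11 in HNF4G-KO + FOXA1-OE, against 6 and 1 without it. No enzyme changed its call under a block. The block fit of Qpct was not run, because it was below the filter. The causes of these changes were not tested.

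Groups of 2 to 4 mice bound the precision of each value, and 2 HNF4G-KO metastases against 4 tumors cannot reach an exact p below 0.133.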
